A study of Mus musculus with 6 samples.

Results

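Of the 23420 genes in the count table, 10 genes of cell-matrix adhesion were followed through all 6 libraries. They encode fibronectin (Fn1), the enzyme that crosslinks it (transglutaminase 2, Tgm2), a fibronectin co-receptor (syndecan-4, Sdc4) and 7 matricellular proteins, namely thrombospondins (Thbs1, Thbs2, Thbs3), tenascin-C (Tnc), periostin (Postn), osteonectin (Sparc) and Smoc2. The list was drawn up by symbol, and Tgm2 was placed on it because its counts were clearly higher in the libraries labelled MSC-TPr. That difference is therefore described here without a test.

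Mesenchymal stromal cells (MSCs) were grown from the bone marrow of young female C57BL/6 mice and transduced with a retroviral vector that also carries eGFP. The 3 libraries of Ctl MSC came from cells given the empty vector, and the 3 libraries of MSC-TPr from cells given the vector for the thymoproteasome (TPr) subunits β1i, β2i and β5t, the form of the proteasome used in the thymic cortex. Both groups thus share strain, tissue, culture medium and vector backbone, and the comparison asks what TPr expression did to the transcriptome of MSCs. Nothing in the labels says whether the libraries came from separate cultures or transductions, so p-values measure only the spread between these libraries.

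Matricellular proteins are secreted into the matrix but are not its building blocks. They bind structural fibres, growth factors and cell surface receptors and tune how firmly a cell holds on. Fibronectin is laid down as fibrils by integrins with the help of syndecan-4, and transglutaminase 2 fixes those fibrils by bonding glutamine to lysine side chains. Stromal cells of bone marrow and healing tissue are known for making these proteins, and their levels commonly move with growth, stretch and TGF-beta signalling.

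Reads on genes ranged from 16158756 to 22158887 per library, so that 3 reads, the smallest amount taken as detectable, equal 0.139 to 0.181 CPM (the usual depth-scaled unit of counts, here with edgeR's TMM factors). These limits cover counting error only. All 10 genes passed the filter on low counts, with at least 102 reads in each library. Of the 3 transduced genes, 0 separated the labels with MSC-TPr above Ctl MSC throughout. Psmb9 (β1i) had 56, 15 and 15 reads across Ctl MSC libraries 1 to 3, against 10, 21 and 26 across MSC-TPr libraries 1 to 3. Psmb10 (β2i) had 460, 165 and 152 reads, against 162, 293 and 328. Psmb11 (β5t) had 2, 4 and 2 reads, against 4, 6 and 1, so that β5t stood out in no library. Why the reads do not show it was not tested. Psmb9 and Psmb10 were thus highest in Ctl MSC 1, and the library labelled MSC-TPr 1 lay below MSC-TPr 2 and 3 in both. The paper checked transduction by eGFP and by immunoblot of the TPr subunits, and it reported enhanced expression of Psmb10 in MSC-TPr. Whether labels of the libraries numbered 1 were exchanged was not tested, and an exchange would change every contrast below, so each direction is one between library labels. Cell division did not follow the labels. A cell division score, the average log2 CPM over 20 genes of mitosis and DNA replication, was 6.76, 6.77 and 6.67 in Ctl MSC 1, MSC-TPr 2 and MSC-TPr 3, and 3.88, 3.86 and 3.90 in Ctl MSC 2, Ctl MSC 3 and MSC-TPr 1.

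The upstream sequences are shown first as a description, and any link of their motifs to the levels below was not tested. RefSeq (GRCm38.p6) gave windows for 6 of the 10 genes: Tnc, Postn, Sparc, Thbs2, Thbs3 and Sdc4. The 250 bases before the annotated start are printed for 4 windows that touch no annotated exon, and capitals mark any of 5 short motifs on either strand.
Postn, chr3:54360857-54361106, plus strand: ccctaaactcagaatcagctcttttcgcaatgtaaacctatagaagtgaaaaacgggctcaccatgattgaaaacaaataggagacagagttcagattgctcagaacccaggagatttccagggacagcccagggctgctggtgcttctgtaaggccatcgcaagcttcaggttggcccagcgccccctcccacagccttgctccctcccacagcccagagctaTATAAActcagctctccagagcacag
Tnc, chr4:64047016-64047265, minus strand: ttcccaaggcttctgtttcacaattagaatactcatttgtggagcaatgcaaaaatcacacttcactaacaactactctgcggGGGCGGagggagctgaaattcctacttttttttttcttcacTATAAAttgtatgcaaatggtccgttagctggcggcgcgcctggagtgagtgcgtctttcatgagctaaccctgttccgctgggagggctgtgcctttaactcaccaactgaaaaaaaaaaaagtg
Thbs2, chr17:14694263-14694512, minus strand: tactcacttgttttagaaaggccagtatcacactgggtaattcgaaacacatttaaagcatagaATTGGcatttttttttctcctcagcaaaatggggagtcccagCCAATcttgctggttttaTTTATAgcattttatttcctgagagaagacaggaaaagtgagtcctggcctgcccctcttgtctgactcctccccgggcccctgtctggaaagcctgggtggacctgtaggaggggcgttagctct
Sdc4, chr2:164443189-164443438, minus strand: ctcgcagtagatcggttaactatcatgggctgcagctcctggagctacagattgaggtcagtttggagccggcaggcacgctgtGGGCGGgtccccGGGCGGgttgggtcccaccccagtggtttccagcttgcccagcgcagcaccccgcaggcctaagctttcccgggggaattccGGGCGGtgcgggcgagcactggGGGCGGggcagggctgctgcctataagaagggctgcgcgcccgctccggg
The window of Sdc4 lies inside the longer gene model of GENCODE, and the other 3 lie just before it. Both strands were searched for the core TATA motif TATAAA, the GC box motif GGGCGG, the CCAAT box, the AP-1 binding motif TGANTCA and the TEAD binding motif GGAATG. No matches overlapped in the printed windows, and the 2 windows of Tnc overlap and hold the same matches. TATAAA stood 26 bases before the start of Postn and 126 bases before those of Tnc and Thbs2 (in Thbs2 on the reverse strand, so that it reads TTTATA), while Sdc4 had none and had 4 GC boxes. Among all 32841 RefSeq windows of the same length, 12.4% held TATAAA, 32.7% GGGCGG, 33.9% CCAAT, 6.75% TGANTCA and 12.6% GGAATG. The 8 windows of these genes (Tnc and Postn have 2 each) held TATAAA in 4, GGGCGG in 4, CCAAT in 2, and TGANTCA and GGAATG in 0. The sites of Tnc are counted in both of its windows. The Sdc4 window had 19 CpG dinucleotides, against 3 in Thbs2, 4 in the printed Postn window and a median of 6 over all windows.

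Tgm2 was higher in the libraries labelled MSC-TPr than in those labelled Ctl MSC, by the contrast for which it was chosen. It lies on chromosome 2 of mm10 from 158116402 to 158146436, on the minus strand. It measured 17.3, 12.7 and 14.6 CPM across Ctl MSC libraries 1 to 3, against 37.5, 40.0 and 38.9 CPM across MSC-TPr libraries 1 to 3. The groups did not overlap, and the 3 libraries labelled MSC-TPr lay within 1.07-fold of each other. Tgm2 was chosen on these same values. The group means were 14.9 ± 2.30 and 38.8 ± 1.26 CPM (SD, n = 3 each), which is 1.38 as a log2 fold change.

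Exons of Tgm2 overlap those of Rprd1b and Gm20412 on the opposite strand, and whether the counting used the strand is not given in the sources used here, so reads of such overlaps could not be told apart. Rprd1b, a regulator of RNA polymerase II, stood at 27.5, 22.2 and 23.6 CPM under the Ctl MSC label and at 35.8, 33.9 and 37.4 CPM under the MSC-TPr label. Its groups did not overlap either, with a smaller step than that of Tgm2. Its part in the Tgm2 difference was not tested. Over all genes tested, 10.6% had groups without overlap and MSC-TPr above, and 12.1% had MSC-TPr below.

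**Figure D1:**
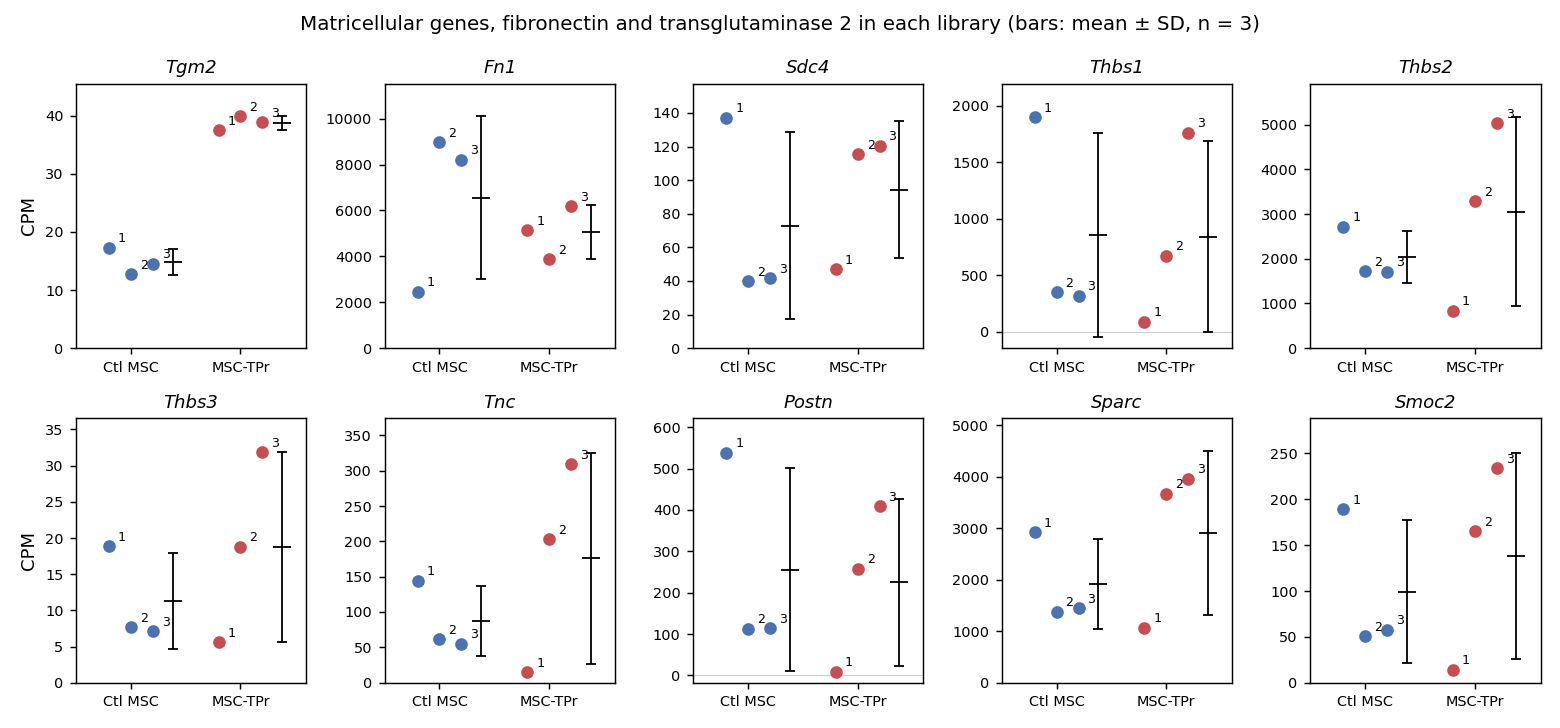
CPM of each of the 10 genes by library, with 1 panel per gene, numbered points for the libraries labelled Ctl MSC (blue) and MSC-TPr (red), and bars for the mean ± SD (n = 3). Tgm2 splits by label, from 12.7 to 17.3 CPM against 37.5 to 40.0 CPM, whereas in every other panel the points of the groups overlap.

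Fibronectin, the protein whose fibrils Tgm2 crosslinks, followed neither the label nor the other genes. Fn1 lies on chromosome 1 from 71585520 to 71653200. It measured 2465, 8960 and 8204 CPM across Ctl MSC libraries 1 to 3, against 5148, 3863 and 6178 CPM across MSC-TPr libraries 1 to 3. The highest were Ctl MSC 2 and 3 and the lowest was Ctl MSC 1, so the whole range of Fn1 lay within the control label. Apol7d, whose exons overlap those of Fn1 on the opposite strand, was at most 0.331 CPM. The log2 fold change was −0.37, with a 95% interval from −1.53 to 0.79 (edgeR adjusted p = 0.771), and the covariate fit turned it to 0.15 (edgeR adjusted p = 0.83).

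Sdc4, a heparan sulfate proteoglycan that works beside integrins at fibronectin contacts, had its highest level in Ctl MSC 1, where Fn1 was lowest. It lies on chromosome 2 from 164424247 to 164443887. It measured 137, 39.7 and 41.7 CPM across Ctl MSC libraries 1 to 3, against 47.1, 115 and 121 CPM across MSC-TPr libraries 1 to 3. Each group held both high and low libraries, with 3.46-fold between the highest and the lowest library of all 6. Its log2 fold change was 0.37, with an interval from −1.03 to 1.78 (edgeR adjusted p = 0.811).

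The thrombospondins are calcium-binding glycoproteins, of which Thbs1 and Thbs2 form trimers, inhibit blood vessel growth and bind CD36 and CD47, while Thbs3 forms pentamers. Thbs1, on chromosome 2 from 118111876 to 118127133, measured 1900, 351 and 319 CPM across Ctl MSC libraries 1 to 3, against 90.2, 675 and 1762 CPM across MSC-TPr libraries 1 to 3. It was highest in Ctl MSC 1 and lowest in MSC-TPr 1, libraries that carry the same number and lay 21.1-fold apart. The log2 fold change was −0.02, with an interval from −2.65 to 2.60 (edgeR adjusted p = 0.994). An interval of that width leaves changes of several-fold in both directions possible. Exons of Thbs1 overlap those of Gm29233 on the opposite strand, whose part in these counts was not tested.

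Thbs2, on chromosome 17 from 14665500 to 14694235, moved over a narrower range. It measured 2721, 1717 and 1706 CPM across Ctl MSC libraries 1 to 3, against 835, 3285 and 5038 CPM across MSC-TPr libraries 1 to 3. Its highest and lowest libraries were both labelled MSC-TPr, which gave a log2 fold change of 0.58 with an interval from −0.87 to 2.02 (edgeR adjusted p = 0.705). Thbs3, on chromosome 3 from 89215180 to 89226837, was the least expressed of the 3 thrombospondins per length, with 18.9, 7.69 and 7.17 CPM across Ctl MSC libraries 1 to 3, against 5.65, 18.8 and 31.8 CPM across MSC-TPr libraries 1 to 3. Its log2 fold change was 0.74, from −0.86 to 2.34 (edgeR adjusted p = 0.653). Exons of Thbs3 overlap those of Mtx1 on the opposite strand. Mtx1 stayed between 17.3 and 23.3 CPM in all libraries, a narrower range than the 5.63-fold of Thbs3.

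Thbs1 and Thbs2 did not keep a fixed ratio. Per kilobase of exon (RPKM), Thbs1 stood at 0.805 of Thbs2 in Ctl MSC 1, 0.236 in Ctl MSC 2 and 0.215 in Ctl MSC 3. The ratio was 0.125, 0.237 and 0.403 across MSC-TPr libraries 1 to 3, and the 2 groups overlapped.

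Tenascin-C, which loosens the hold of cells on fibronectin, and periostin, which binds collagen and tenascin-C, had the widest ranges beside Thbs1. Tnc, on chromosome 4 from 63959785 to 64047015, measured 144, 61.8 and 55.2 CPM across Ctl MSC libraries 1 to 3, against 15.2, 203 and 309 CPM across MSC-TPr libraries 1 to 3. The 20.4-fold range of Tnc thus lay within the MSC-TPr label. Its log2 fold change was 1.01, with an interval from −1.24 to 3.27 (edgeR adjusted p = 0.661), and without MSC-TPr 3 it was 0.34. Exons of Tnc overlap those of 8030451A03Rik on the opposite strand, whose part in these counts was not tested.

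Postn, on chromosome 3 from 54361109 to 54391037, varied most of all. It measured 538, 114 and 114 CPM across Ctl MSC libraries 1 to 3, against 8.69, 258 and 409 CPM across MSC-TPr libraries 1 to 3. The highest library, Ctl MSC 1, and the lowest, MSC-TPr 1, lay 61.9-fold apart. Their levels rest on 8910 and 157 reads, so counting error is small beside this gap. The log2 fold change over all 6 libraries was −0.18, with an interval from −3.05 to 2.69 (edgeR adjusted p = 0.960).

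Sparc, a collagen-binding protein abundant in bone, and Smoc2, a secreted calcium-binding relative of it, were the last pair. Sparc lies on chromosome 11 from 55394500 to 55423183 and measured 2926, 1379 and 1449 CPM across Ctl MSC libraries 1 to 3, against 1072, 3673 and 3961 CPM across MSC-TPr libraries 1 to 3. Both MSC-TPr 2 and 3 lay above every control library, and MSC-TPr 1 lay below every one. The log2 fold change was 0.60, from −0.70 to 1.90 (edgeR adjusted p = 0.655). Smoc2, on chromosome 17 from 14279506 to 14404790, stood at 189, 50.7 and 57.9 CPM under the Ctl MSC label and at 14.4, 165 and 234 CPM under the MSC-TPr label. It spanned 16.2-fold, against 3.69-fold for Sparc, and gave 0.48 on the log2 scale, from −1.80 to 2.75 (edgeR adjusted p = 0.854).

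Of the 9 genes other than Tgm2, 0 were called, that is, passed edgeR's quasi-likelihood test at an adjusted p under 0.05 while differing by 0.5 or more on the log2 scale. The number with an unadjusted p under 0.05 was also 0, and DESeq2 called 0 as well. Over all 11974 genes tested, edgeR called 0.426% (0.0251% higher and 0.401% lower) and DESeq2 called 5.05% of the 13253 genes to which it gave an adjusted p. The median log2 fold change of the 10 genes was 0.53, against 0.01 over all genes tested. The 10 include Tgm2, which was chosen for being higher, so this median is only a description. With the cell division score as a covariate, which called 4.65% of all genes higher and 7.18% lower, 0 of the 9 were called (11.8% of all genes were called in either direction). The intervals above are wide, so a p that misses the threshold does not show that these genes were alike in the groups.

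The 8 genes other than Fn1 and Tgm2 shared the same set of 3 highest libraries, though not their order. In Sdc4, Thbs1, Thbs2, Thbs3, Tnc, Postn, Sparc and Smoc2 the 3 highest libraries were Ctl MSC 1, MSC-TPr 2 and MSC-TPr 3, which were also the 3 highest in cell division. Of all genes tested, 23% had these 3 libraries on top and 21.7% had the other 3 on top. This set is a description across 6 libraries, and the part of cell division in it was not tested. In bulk RNA, fewer cells that make a transcript and less of it per cell cannot be told apart. MSC-TPr 1 was the lowest library for 7 of the 8; for Sdc4 it was the fourth, at 47.1 CPM, above Ctl MSC 2 and 3. Ctl MSC 2 and 3 were close to each other throughout, with ratios of Ctl MSC 3 to Ctl MSC 2 from 0.894 for Tnc to 1.15 for Tgm2.

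**Figure D2:**
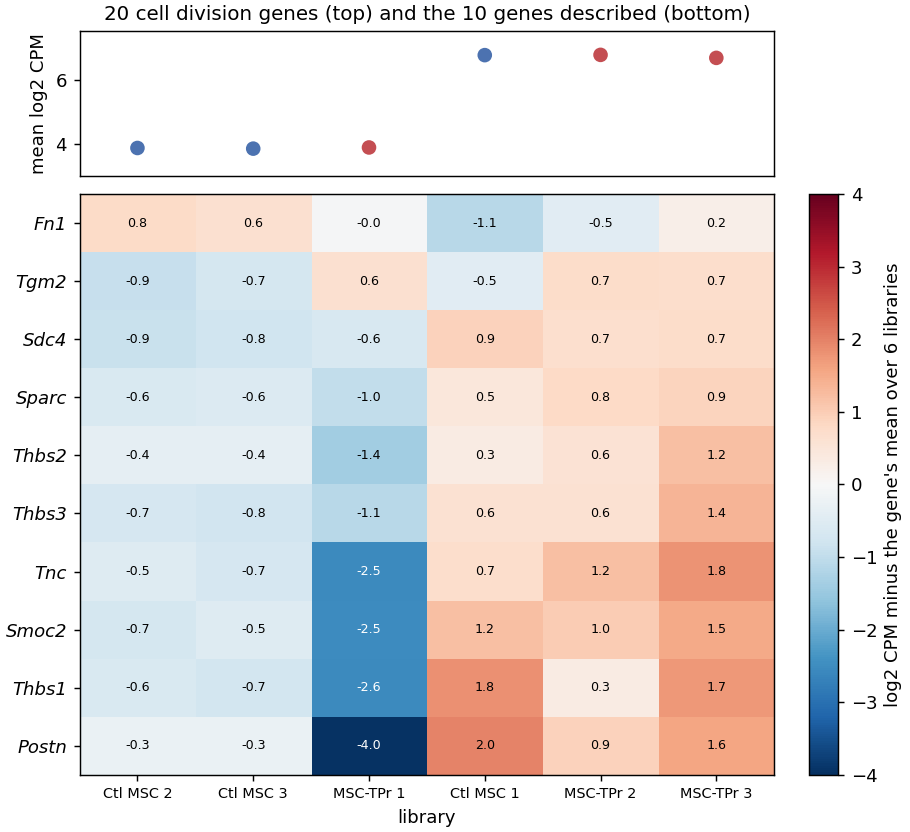
The upper part plots that score (mean log2 CPM) in each library (blue, Ctl MSC; red, MSC-TPr), and the lower part the log2 CPM of each gene minus its own mean over 6 libraries, as colour and number. Libraries are ordered by cell division, from at most 3.90 in the left 3 columns to at least 6.67 in the right 3. The 8 genes from Sdc4 down turn from blue to red at the middle, and MSC-TPr 1 holds the lowest value, −3.97, in Postn.

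The label contrast therefore hung on the libraries used. With the libraries numbered 2 and 3 of each group alone, all 9 genes other than Tgm2 were called by edgeR, as were 40% of all genes tested in that fit (20.6% higher and 19.4% lower). Of the 9, 8 were higher and Fn1 was lower in MSC-TPr. In these 4 libraries the cell division score was 6.77 and 6.67 under MSC-TPr and 3.88 and 3.86 under Ctl MSC, so label and cell division cannot be told apart there. The log2 fold changes were 2.13 for Tnc (SE 0.219, edgeR adjusted p = 0.0010), 1.88 for Smoc2 (SE 0.194, edgeR adjusted p = 0.0011) and 1.54 for Sdc4 (SE 0.113, edgeR adjusted p = 0.00034). For Fn1 the value was −0.77 (SE 0.240, edgeR adjusted p = 0.042). These SEs and p-values rest on 2 libraries a group. They leave out the spread that the libraries numbered 1 add: edgeR's common dispersion was 0.0168 here, against 0.124 over all 6 libraries. The control pair, Ctl MSC 2 and 3, was closely alike, and whether it came from separate cultures is not given. The libraries numbered 1 differed the opposite way in all 9 genes. Among the 8 genes, MSC-TPr 1 minus Ctl MSC 1 ran from −5.95 for Postn to −1.45 for Sparc in log2 CPM, and for Fn1 it was 1.06. The other sign was also found in 70.1% of all genes called over libraries 2 and 3. Each library of that pair stands alone, so this reversal has no replicate check. For Tgm2 the difference between the libraries numbered 1 was 1.12, a sign fixed by the choice of Tgm2 on these libraries.

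**Figure D3:**
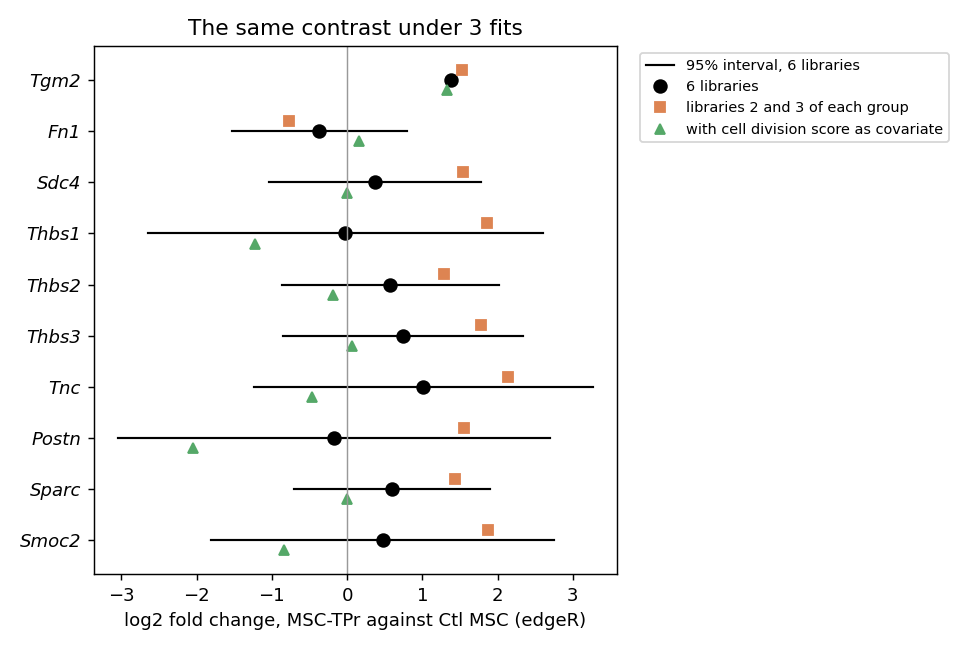
Log2 fold change of MSC-TPr against Ctl MSC for each gene (edgeR) over 6 libraries (black circles, with 95% intervals as lines, none for Tgm2, which was chosen on this contrast), over libraries 2 and 3 of each group (orange squares) and with the cell division score as a covariate (green triangles). The 3 markers spread from −2.05 to 1.56 for Postn; those of Tgm2 follow from its choice on these libraries.

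Levels of different genes were compared per length, in RPKM over the exons annotated by GENCODE M21. In Ctl MSC the order by mean was Fn1 (560 ± 304), Sparc (506 ± 231), Thbs2 (292 ± 83.2), Thbs1 (141 ± 149), Postn (29.3 ± 28.2), Sdc4 (28.6 ± 21.9), Smoc2 (14.3 ± 11.2), Tnc (11.2 ± 6.37), Tgm2 (3.22 ± 0.499) and Thbs3 (2.33 ± 1.38; RPKM, SD, n = 3 each). Each neighbour in that order overlapped the next in its range over the 3 libraries, except Tnc, which lay wholly above Tgm2. In MSC-TPr the order began with Sparc (766 ± 420), Thbs2 (436 ± 301) and Fn1 (433 ± 99.2). Tgm2 stayed in ninth place at 8.42 ± 0.273 RPKM. Among the 11252 genes tested that had a length, Fn1 stood at the 99.5th percentile of mean RPKM in Ctl MSC and Tgm2 at the 32.1st.

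The mix of these transcripts differed between libraries of 1 label. The summed CPM of the 10 genes ran from 7275 in MSC-TPr 1 to 18082 in MSC-TPr 3. Fn1 made up 22.3%, 31.4% and 34.2% of that sum in Ctl MSC 1, MSC-TPr 2 and MSC-TPr 3, and 70.6%, 68.6% and 70.8% in Ctl MSC 2, Ctl MSC 3 and MSC-TPr 1. Sparc per Fn1 in RPKM was 3.66, 0.475 and 0.545 across Ctl MSC libraries 1 to 3, against 0.642, 2.93 and 1.98 across MSC-TPr libraries 1 to 3. A fibronectin-rich mix was thus found under both labels, as was a mix in which Sparc exceeded Fn1.

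The genes whose centred log2 CPM lay nearest to Tgm2 over the 6 libraries, out of 9288 with a mean log2 CPM of at least 3, were Egln3, Gm7120 and Igsf8, with root mean square differences of 0.18, 0.18 and 0.21. Egln3, an oxygen-sensing prolyl hydroxylase, stood at 5.86, 5.50 and 5.96 CPM under the Ctl MSC label and at 13.1, 12.5 and 16.3 CPM under the MSC-TPr label. The nearest to Fn1 were Bcl2, Dnajb9 and Sel1l, at 0.15, 0.19 and 0.20. The nearest to Thbs1 were Rgs4, Col12a1 and Sfrp2, at 0.26, 0.26 and 0.30. Within the 10 genes the closest pair was Sparc and Thbs3, at 0.24, and the farthest was Fn1 and Postn, at 2.26. This measure describes 6 libraries and carries no test.

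Related genes were taken from 6 lists of 104 genes in all, of which 83 were tested. Of these, edgeR called 0, 10 had an unadjusted p under 0.05 (12%, against 15% of all genes tested), and DESeq2 called 2, Nov and Tgfbr2. Groups without overlap were seen for 9 of the 83 (10.8%), 5 higher and 4 lower in MSC-TPr, against 22.6% of all genes tested. The 9 were Wisp1, Megf10, Pxn, Skil and Smad7 on the higher side and Nov, Cd47, Mmp2 and Tgfbr2 on the lower. Those given with values below, like Itga5, Wisp2, Nt5e and Alpl, were picked after their values were seen. The 20 cell division genes held 0 of these 9 and 0 of the 10, so both shares would be higher over the other 63 genes. The other matricellular genes numbered 21, of which 12 were tested, with a median log2 fold change of 0.44. Wisp1 (CCN4), of the CCN family of adhesive signalling proteins, stood at 144, 226 and 233 CPM under the Ctl MSC label and at 298, 379 and 315 CPM under the MSC-TPr label, without overlap (log2 fold change 0.72, SE 0.228, edgeR adjusted p = 0.230). Nov (CCN3), of the same family, measured 139, 140 and 148 CPM and 92.2, 52.5 and 47.3 CPM, also without overlap (−1.15, SE 0.272, edgeR adjusted p = 0.152). Wisp2 (CCN5) had a log2 fold change of −0.64 (edgeR adjusted p = 0.527).

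Ctgf (CCN2), a target of TGF-beta and of stretch, measured 604, 137 and 139 CPM across Ctl MSC libraries 1 to 3, against 71.6, 1750 and 1647 CPM across MSC-TPr libraries 1 to 3. Spp1 (osteopontin), a bone matrix protein that binds integrins, measured 1324, 435 and 464 CPM and 608, 1709 and 1205 CPM. Both had the same 3 libraries on top as the 8 genes above, as did 8 of the 12 tested in that list. Fstl1, at 257 to 803 CPM, and Cyr61 (CCN1), at 168 to 393 CPM, had log2 fold changes of 0.06 and −0.18. Of the 8 other transglutaminases only F13a1 and Tgm4 passed the filter on low counts. F13a1, the plasma clotting factor subunit that crosslinks fibrin, measured 193, 47.5 and 46.6 CPM and 18.1, 102 and 123 CPM, and Tgm4 stayed between 4.33 and 8.28 CPM. Groups overlapped in both, whereas Tgm2 was chosen for its split by label. Over all genes tested, 22.6% had groups without overlap.

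Receptors and partners (15 of 19 tested) had a median log2 fold change of 0.16. Cd47, a thrombospondin receptor, stood at 60.6, 77.2 and 80.9 CPM under the Ctl MSC label and at 50.8, 44.4 and 46.6 CPM under the MSC-TPr label, without overlap (log2 fold change −0.63, SE 0.166, edgeR adjusted p = 0.183). Itga5, which pairs with Itgb1 as the classical fibronectin receptor, measured 215, 153 and 146 CPM and 150, 378 and 496 CPM. Itgb1 itself ranged from 860 to 1281 CPM. Elsewhere on this list Lrp1 had a log2 fold change of −0.26, Ddr2 of −0.54 and Ptprs of −0.01.

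The fibronectin matrix and adhesion genes (20 of 22 tested) had a median of −0.02. Lox, which crosslinks collagen, stood at 3059, 334 and 331 CPM under the Ctl MSC label and at 153, 1476 and 2015 CPM under the MSC-TPr label. Mmp2, a matrix protease, was without overlap at 139, 114 and 120 CPM and 36.2, 60.2 and 84.7 CPM (−1.04, SE 0.308, edgeR adjusted p = 0.213). Fbln2, Zyx and Lims1 had log2 fold changes of 1.41, −0.12 and 0.06. The TGF-beta list (16 of 16 tested) had a median of 0.50. It holds induced genes and also ligands and receptors of the pathway (Tgfb1, Tgfb2, Tgfb3, Tgfbr1 and Tgfbr2). Col1a1 ranged from 354 CPM in MSC-TPr 1 to 6916 CPM in MSC-TPr 3. Col1a2 and Acta2 had log2 fold changes of 0.61 and 0.47. Tgfbr2, the type II TGF-beta receptor, stood at 192, 149 and 152 CPM under the Ctl MSC label and at 88.8, 77.8 and 108 CPM under the MSC-TPr label, without overlap (−0.85, SE 0.187, edgeR adjusted p = 0.132). The 20 cell division genes, which define the score that names those 3 libraries, had a median of 0.65, and 20 of 20 had the same 3 on top. Pcna, Mcm2, Top2a and Cdk1 had log2 fold changes of 0.70, 0.05, 0.52 and 0.63. Outside that list, 36 of the 63 related genes tested (57.1%) had these 3 libraries on top.

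**Figure D4:**
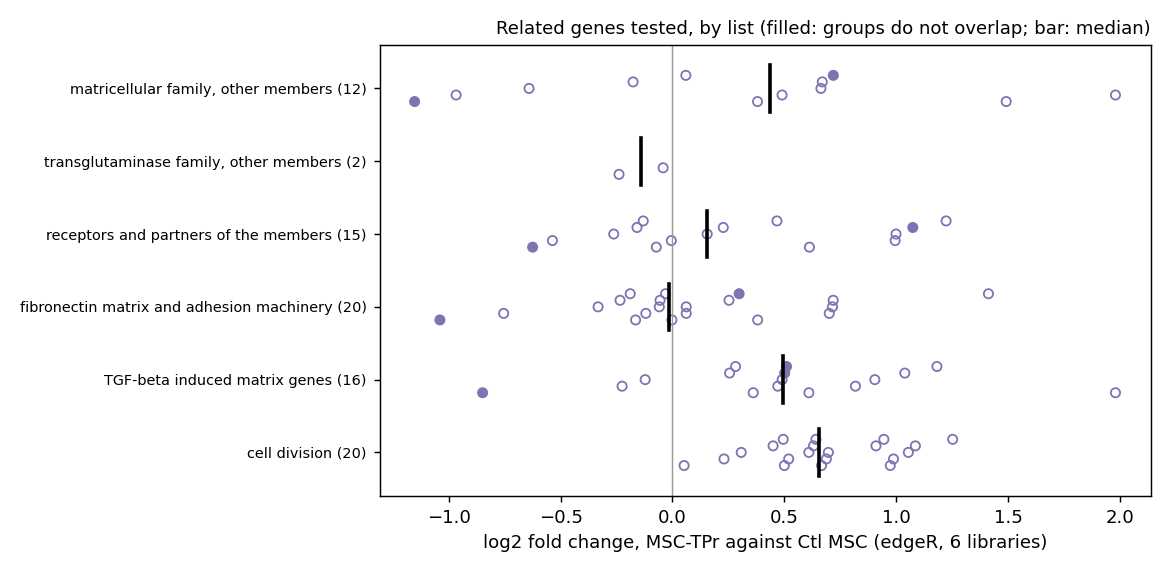
Log2 fold change of MSC-TPr against Ctl MSC (edgeR, 6 libraries) for each related gene that was tested, by list, with the number tested in brackets, filled points for genes whose groups do not overlap and a bar at the median. The medians run from −0.14 for the other transglutaminases to 0.65 for cell division.

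Defining markers of several other cell types were at or near 0 reads. Macrophages also make Fn1, Thbs1 and Tgm2, and of their 10 markers Emr1 had 0 reads and Ptprc at most 2 in any library; the summed level of the list was 11.3 to 14.7 CPM for Ctl MSC against 13.2 to 17.6 CPM for MSC-TPr, most of it Cd68 and Cd14. The granulocyte list (6 of 7 in the table) summed to at most 0.414 CPM. Endothelial markers summed to 1.27 to 6.20 CPM and 2.41 to 24.7 CPM, with the highest sum in MSC-TPr 1, where Vwf had 386 reads and Pecam1 had 0. Osteoblast, adipocyte and chondrocyte lists summed to 6.07 to 11.4, 227 to 319 and 33.7 to 69.8 CPM for Ctl MSC, against 4.87 to 18.8, 259 to 302 and 36.3 to 50.6 CPM for MSC-TPr, and Ibsp and Matn1 had 0 reads in every library. In the chondrocyte list Sox9 had 587 to 953 reads and Col2a1 1 to 164. In the osteoblast list Phex had 39 to 133 reads, and Alpl had 57, 13 and 9 reads for Ctl MSC against 45, 120 and 261 for MSC-TPr (log2 fold change 2.23, edgeR adjusted p = 0.310). Most of the adipocyte sum came from Lpl and Fabp4, while Adipoq had at most 2 reads. The part of any of these cells in the results was not tested. Of the 10 stromal markers, Cd44, Itgb1, Eng, Pdgfrb, Ly6a, Col1a1 and Col1a2 had at least 2254 reads in each library, Pdgfra had 555 to 3108, Nt5e (CD73) 48 to 379 and Thy1 (CD90) 0 or 1. Nt5e was without overlap at 11.4, 20.2 and 17.4 CPM for Ctl MSC against 2.66, 4.20 and 5.24 CPM for MSC-TPr (log2 fold change −2.02, 95% interval from −2.85 to −1.18, edgeR adjusted p = 0.079).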

How the data were processed

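Polyadenylated RNA of 3 libraries of Ctl MSC and 3 of MSC-TPr was made into libraries with a stranded kit and sequenced as paired ends. The authors trimmed reads with Trimmomatic 0.35, mapped them to mm10 with TopHat2 2.1.0, after CASAVA 1.8.2, and deposited raw counts per gene from HTSeq. The versions are from the submitters' processing notes, and the strand setting of the counting is not given in the sources used here. The 5 summary lines of unassigned reads were left out, and 79.2% to 86.2% of the counts of each library lay on genes. Groups were taken from the labels.

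Counts were tested with edgeR 4.0.16 in R 4.3.3 (TMM scaling, filterByExpr, quasi-likelihood test, Benjamini-Hochberg adjustment over all 11974 genes tested). Calls needed an adjusted p under 0.05 together with a difference of 0.5 or more on the log2 scale. Log2 CPM used a pseudocount of 0.5 where it was centred. Tgm2 was chosen on this contrast, so its p-value, SE and interval are not given. It was fitted with all other genes and is counted among the 3 called higher, which carries no weight given that choice. Members, lists and tests were chosen with earlier results of these data known. Named genes were the 10 members, called genes of the lists and up to 4 genes per list with the highest mean log2 CPM, and for likeness the 3 nearest genes; exceptions are stated where they are named. Exon lengths and coordinates were from GENCODE M21, and upstream windows from RefSeq. Older symbols (Ctgf, Nov, Wisp1, Cyr61) were matched through RefSeq synonyms. The scripts were tested on simulated data. Alternatives were DESeq2 1.42.0, RLE scaling, no filter, at least 10 counts in every library, the replicate number as a block, leaving out each library, libraries 2 and 3 of each group, and the cell division score as a covariate. No libraries were copies of each other. Ctl MSC 2 and 3 were the most alike, with a chi-square per gene of 4.97. Other pairs within a group had 52.3 to 200.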

Additional observations from a re-analysis of the deposited data

How the results depend on the processing

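Of all genes, edgeR called 3 higher and 48 lower. DESeq2 called 239 and 430, the covariate fit 557 and 860, libraries 2 and 3 alone 2498 and 2356, and at least 10 counts in every library left 29 lower. Leaving out each library gave 0 to 11 higher and 0 to 105 lower. Of the 9 genes other than Tgm2, 0 were called, and 9 with libraries 2 and 3 alone. Of the related genes (83 tested in the main fit, cell division genes included), 0 were called. DESeq2 called 2, libraries 2 and 3 gave 56, the covariate 14, and leaving out a library 0 to 1 (Nov without MSC-TPr 1). The shares called over all genes were 0.426% in the main fit and 5.05% by DESeq2. They were 40% with libraries 2 and 3 and 11.8% with the covariate. The log2 fold change turned to 1.56 for Postn and 1.87 for Thbs1 with libraries 2 and 3. With the covariate it turned to 0.15 for Fn1, −0.46 for Tnc, −0.00078 for Sparc, −0.19 for Thbs2, −0.0029 for Sdc4 and −0.84 for Smoc2. On leaving out a library it ran from −0.92 to 0.99 for Postn, −1.15 to 1.33 for Thbs1 and −0.13 to 1.35 for Smoc2, with the same sign throughout from 0.34 to 1.59 for Tnc, 0.02 to 1.02 for Thbs2, 0.13 to 1.34 for Thbs3, 0.08 to 1.22 for Sdc4, 0.32 to 1.04 for Sparc and −0.76 to −0.08 for Fn1. The lowest values of Tnc, Thbs2 and Thbs3 came without MSC-TPr 3, and that of Sdc4 without Ctl MSC 2. Groups without overlap were counted over all 10 genes, with Tgm2, chosen for its split by label, always among them. Without Ctl MSC 1, 3 of the 10 genes did not overlap between groups, against 47.3% of all genes tested, and without MSC-TPr 1, 4 did not, against 41.4%. The cause was not tested. Same-numbered libraries deviated in opposite directions (correlations −0.755, −0.574 and −0.59). Pairs across the labels that were alike in cell division correlated positively (Ctl MSC 2 with MSC-TPr 1, 0.704), and the rest negatively (Ctl MSC 2 with MSC-TPr 3, −0.568). The signs followed that split, so they cannot show whether the numbers pair libraries. With the replicate number as a block, edgeR called 0 higher and 0 lower (776 genes at an unadjusted p under 0.05). Thbs1 turned to 0.18 in that fit. With 3 libraries a group and the spread between them, intervals stayed wide although depth was ample.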
